A study of Mus musculus with 6 samples.

Results

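The genes described here are 10 markers of tuft cells: Dclk1, Pou2f3, Trpm5, Il25, Il17rb, Avil, Sh2d6, Gng13, Alox5ap and Gfi1b. They were chosen by name, as every non-control probe whose gene name in the scanner files is one of these symbols, which gave 21 of 56605 probes and 10 of 37008 named genes. Their RNA was measured in epithelial samples of the common bile duct, from mice of the C57BL/6 strain. Samples labelled DOX+ came from iFGF10 mice, named for an inducible Fgf10 gene, given drinking water with 0.02% doxycycline for 5 days, and samples labelled DOX- came from mice given plain water for 5 days (3 arrays in each group). The drug turns on genes that stand under a tetracycline-controlled promoter. The source names call the DOX- mice untreated iFGF10 mice, but their descriptions carry WT and a pair of numbers, so whether they carried the construct and whether each array holds 1 mouse or a pool is not settled by the labels. The promoter and cell type that drive the construct, and the age of the mice, are not stated in the labels. No doxycycline-treated mice without the construct were analysed here, so the drug and the induced gene cannot be told apart.

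Tuft cells are rare chemosensory epithelial cells with a thick apical tuft of microvilli, found in the gut, airways and bile ducts. They sense luminal compounds through a taste-type cascade that ends in the cation channel Trpm5, they make the cytokine IL-25, which acts on type 2 innate lymphoid cells, and they make leukotrienes and acetylcholine. Their formation depends on the POU-domain transcription factor Pou2f3, and they are a normal cell type of the mouse extrahepatic bile duct.

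The probes that carried the signal are shown by the last 30 of their 60 bases, because probes of 1 gene did not always agree. Capitals mark AATAAA, the usual polyadenylation signal, where it lies in the stretch shown. Positions are those of the files, on mm9. No mm9 annotation was used here, so exon or untranslated region was not assigned. The first 2 lines are the Trpm5 probe with signal (chr7:150257434-150257456, minus strand, of which the file maps only 23 bases) and the Trpm5 probe without it (chr7:150266961-150267130, minus strand). The next are the Dclk1 probe used for the gene (chr3:55342815-55342874, plus strand) and a Dclk1 probe further 5′ (chr3:55266925-55266984, plus strand). Those that follow are from Avil (chr10:126457976-126458035, plus strand), Gfi1b (chr2:28464982-28465041, minus strand), Il25 (chr14:55554319-55554378, plus strand) and Pou2f3 (chr9:42932583-42932642, minus strand).
Trpm5, with signal: ctactcagctctcagaactgtggttgcagg
Trpm5, without signal: ttctgccagagcgggcattcctgaccaaga
Dclk1, used for the gene: taaattgtaggtgaatgtggaatgaaatca
Dclk1, further 5′: ccacgctcgggcaagtcaccaagtccatca
Avil: catgttcaactttacaAATAAAgaggccat
Gfi1b: gttgatgtaaatgtaAATAAAggtgggttt
Il25: ctgacttttgcactttttggaagcactttt
Pou2f3: ctattcctgggtcctacaaagtcccttcct

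The 6 arrays were on 1 slide and were scanned on 1 day. Between 55.93% and 61.9% of the 59305 non-control spots of an array were well above background, and no spot was saturated. Row 1 of the slide held the 3 DOX+ arrays and DOX- replicate 1, and row 2 held the other DOX- arrays. The 3 probes for Fgf10 itself were well above background on 0 of the 6 arrays, with log2 levels between -7.41 and -5.55, so the labels could not be checked against the induced gene. The labels do not say whether the transcript of the construct holds the sequence of these probes. The cholangiocyte marker Epcam had log2 levels between 2.12 and 2.70 on all 6 arrays, and 10 of 10 cholangiocyte markers passed the filter. They were not all even between the groups. The mean was lower in DOX+ for 8 of the 10, against 51.7% of all genes. The groups did not overlap for 4, against 21% of all genes. Cdh1 differed by -2.01 and Krt7 by -1.02 (limma adjusted p = 0.172 for each), and none of the 10 passed the test. The labels do not tie each array to a separate animal, so p-values reflect only how these samples vary, which may be partly technical.

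Tuft cell genes were detected in both groups, none passed the test of a difference between them, and their levels spread widely among the 3 DOX+ arrays. Of the 10 genes, 9 passed the filter, which asks that each of the 3 arrays of 1 group, or of both, reads the probe well above background. In limma, with Benjamini-Hochberg adjustment over all genes and a threshold of 0.05, 0 of the 9 were called, where 0.0386% of all 20736 genes tested were (8 genes, 0.0193% higher and 0.0193% lower in DOX+). None of the 9 had an unadjusted p under 0.05, against 13.3% of all genes. The mean was lower in DOX+ for 7 of the 9, against 51.7% of all genes, and the median of the 9 log2 differences was -0.42, against -0.01 over all genes. In bulk RNA, fewer tuft cells and less RNA per tuft cell cannot be told apart. Levels below are log2 intensities relative to the array's 75th percentile, so 0 is the level of that percentile, and they are compared between arrays for 1 probe, not between probes.

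**Figure D1:**
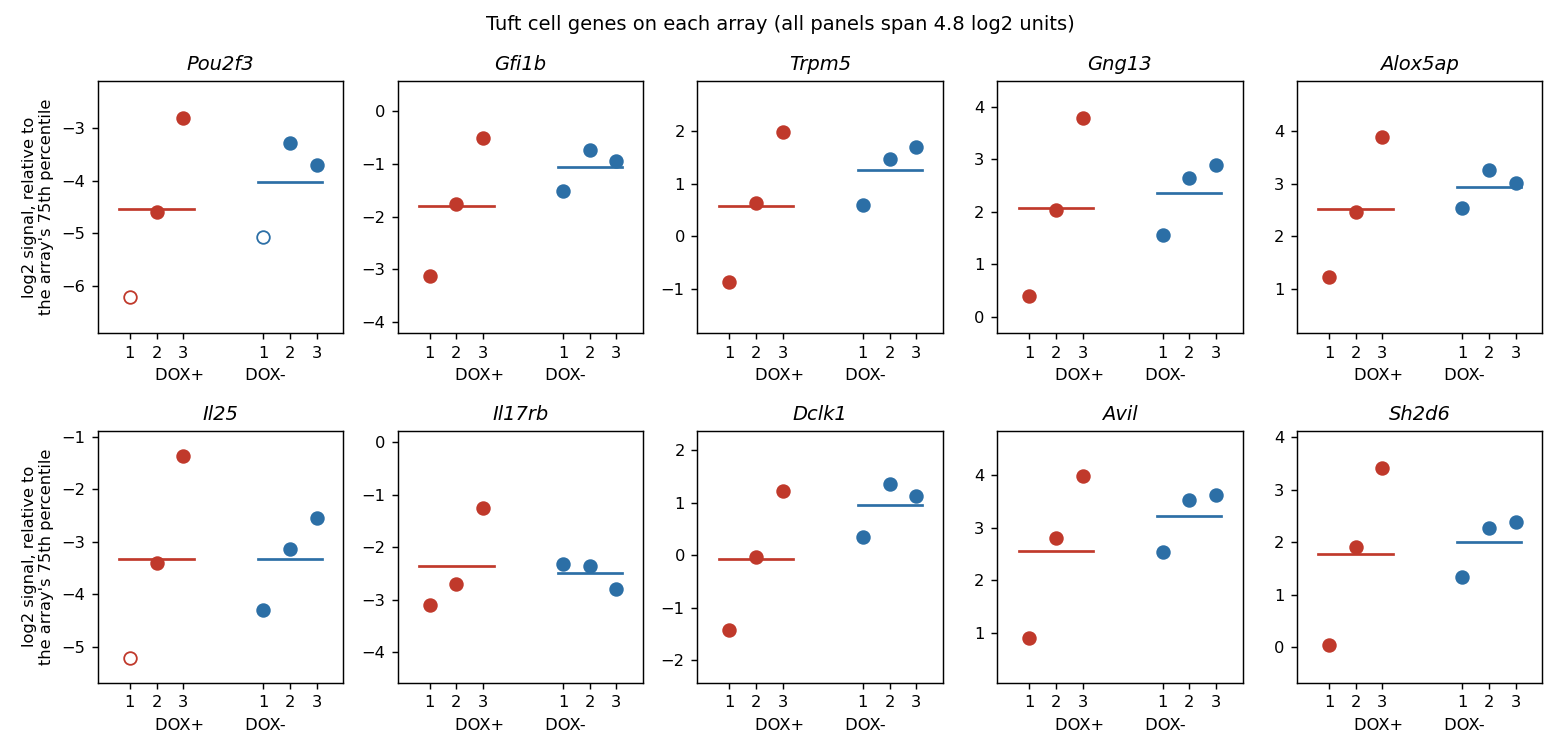
Log2 signal of the probe with the highest mean for each of the 10 genes, on the 3 DOX+ (red) and 3 DOX- (blue) arrays, relative to the array's 75th percentile. Bars are group means, open points were not well above background, and DOX+ replicate 1 is lowest and DOX+ replicate 3 highest of the DOX+ arrays in each panel.

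Of the transcription factors, Pou2f3, on which tuft cell formation depends, was close to background. Its brighter probe read -6.21, -4.59 and -2.80 on DOX+ replicates 1 to 3 and -5.08, -3.28 and -3.70 on DOX- replicates 1 to 3. It was well above background on 2 of 3 arrays in each group and replicate 1 failed in both, so Pou2f3 was not tested. The groups overlapped, and DOX+ replicate 3 gave the highest value of the 6. The second Pou2f3 probe was well above background on DOX+ replicate 3 alone. With no filter on dim probes, the difference between DOX+ and DOX- was -0.51 ± 0.93 (SE, n = 3 per group, limma adjusted p = 0.795).

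Gfi1b, a zinc-finger repressor also known from erythroid and megakaryocyte development, was well above background on all 6 arrays. Its levels were -3.13, -1.77 and -0.51 in DOX+ and -1.51, -0.74 and -0.94 in DOX-. All DOX- arrays lay inside the range of the DOX+ arrays. The means were -1.80 ± 1.31 and -1.06 ± 0.40 (SD, n = 3 each), and the difference of -0.74 had a 95% confidence interval from -2.31 to 0.82 (limma adjusted p = 0.647). Of 8 markers of megakaryocytes and red cells, the 5 tested did not have DOX+ replicate 1 lowest and replicate 3 highest, as Gfi1b had. The untested Gata1 (-6.17, -3.94 and -3.44 in DOX+) and Itga2b (-5.41, -4.52 and -3.13), each well above background on 2 DOX+ and 0 DOX- arrays, did, and the part of those cells in the Gfi1b level was not tested.

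The taste-type cascade is represented by Trpm5, the calcium-activated channel at its end, and Gng13, the G-protein gamma subunit that partners gustducin. Trpm5 read -0.86, 0.63 and 1.98 in DOX+ and 0.59, 1.48 and 1.70 in DOX-. Gng13 read 0.39, 2.03 and 3.79 in DOX+ and 1.56, 2.64 and 2.89 in DOX-. For both genes every DOX- array fell between DOX+ replicates 1 and 3, and DOX+ replicate 3 was the highest of all 6. The Trpm5 difference was -0.67 ± 0.72 (SE, n = 3 per group, limma adjusted p = 0.719), and that of Gng13 was -0.29 ± 0.86 (limma adjusted p = 0.911). The second Trpm5 probe, printed above as the one without signal, was well above background on 0 of the 6 arrays.

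Alox5ap encodes FLAP, the protein that presents arachidonic acid to 5-lipoxygenase for leukotriene synthesis. Its levels were 1.22, 2.47 and 3.89 in DOX+ and 2.54, 3.27 and 3.02 in DOX-, again with all DOX- arrays inside the DOX+ range. The difference was -0.42 ± 0.65 (SE, n = 3 per group, limma adjusted p = 0.812). Its second probe followed the same order, with -0.01, 1.38 and 2.76 in DOX+ and 1.49, 2.15 and 1.85 in DOX-.

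Il25 encodes the cytokine that tuft cells release, and Il17rb a chain of its receptor that tuft cells carry themselves. Il25 read -5.21, -3.41 and -1.37 in DOX+ and -4.31, -3.15 and -2.55 in DOX-, and DOX+ replicate 1 was not well above background. Il17rb read -3.11, -2.71 and -1.26 in DOX+ and -2.33, -2.36 and -2.80 in DOX-. DOX+ replicate 3 stood above the other 5 arrays for both genes. Means of Il25 were -3.33 ± 1.92 in DOX+ and -3.34 ± 0.90 in DOX- (SD, n = 3 each), a difference of 0.01 with a 95% confidence interval from -2.39 to 2.41 (limma adjusted p = 0.999). That of Il17rb was 0.13 ± 0.48 (SE, n = 3 per group, limma adjusted p = 0.93). Both Il17rb probes with signal on all 6 arrays placed the DOX+ replicates in the same order, and the remaining Il17rb probe was well above background on 0 arrays. Il17rb was the member whose DOX- arrays differed least, and there replicate 1 was not the lowest.

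The remaining members are structural and other markers. Dclk1, a microtubule-associated kinase widely used to mark tuft cells, read -1.42, -0.03 and 1.23 in DOX+ and 0.36, 1.37 and 1.13 in DOX-. It had the largest difference between the groups among the 9, -1.03 with a 95% confidence interval from -2.65 to 0.60 (limma adjusted p = 0.54), and DOX- replicate 2 exceeded every DOX+ array. The groups overlapped, since DOX- replicates 1 and 3 lay below DOX+ replicate 3. Of its 4 other probes, 3 gave the same order of DOX+ arrays, including the printed probe further 5′, which read -3.97, -2.45 and -1.64 in DOX+ and -2.17, -1.67 and -1.88 in DOX-. The fourth was well above background on DOX+ replicate 2 alone.

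Avil encodes advillin, an actin-bundling protein of the villin family found in the tuft, and Sh2d6 an SH2-domain adaptor. Avil read 0.90, 2.80 and 3.99 in DOX+ and 2.53, 3.52 and 3.62 in DOX-. Sh2d6 read 0.04, 1.91 and 3.41 in DOX+ and 1.34, 2.28 and 2.38 in DOX-. For both, DOX+ replicate 1 was the lowest and DOX+ replicate 3 the highest of the 6 arrays. The differences were -0.66 ± 0.78 for Avil (SE, n = 3 per group, limma adjusted p = 0.746) and -0.21 ± 0.83 for Sh2d6 (limma adjusted p = 0.939). Each has a second probe that was well above background on all 6 arrays and gave the same order in DOX+.

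**Figure D2:**
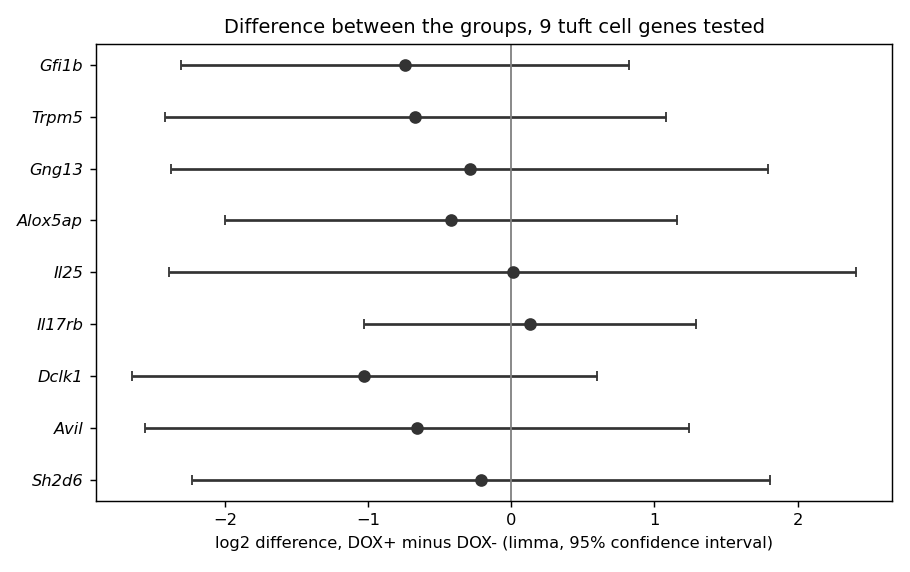
Log2 difference between DOX+ and DOX- for the 9 genes tested, with 95% confidence intervals from limma (n = 3 per group). Every interval includes 0, from -2.65 to 0.60 for Dclk1 to -2.39 to 2.41 for Il25.

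The direction of these differences turned with single libraries. Without DOX+ replicate 1, the differences became 0.05 for Trpm5, 0.17 for Avil, 0.66 for Sh2d6, 0.54 for Gng13 and 0.23 for Alox5ap, and those of Il25 and Il17rb were 0.95 and 0.51. Dclk1 and Gfi1b stayed lower in DOX+, by values of -0.35 and -0.08. Without DOX+ replicate 3, all 9 differences were negative, from -1.68 for Dclk1 to -0.41 for Il17rb, and 3 of the 9 had an unadjusted p under 0.05, against 12.9% of all genes in that fit. None of the 9 passed the adjusted threshold with either library left out. With a block for slide row, which here equals DOX+ against DOX- replicate 1 alone within row 1, Dclk1 differed by -0.43, Gfi1b by -0.29, Avil by 0.03, Sh2d6 by 0.45, Gng13 by 0.51 and Il25 by 0.98. Row 2 held DOX- arrays only and gives no value of its own. A single setting called a member: with limma's default array weights, Dclk1 differed by -1.61 (limma adjusted p = 0.0497, against 0.0497 to 0.967 over all alternatives). That setting gave DOX- replicate 2 a weight of 128, the other arrays 0.19 to 0.747, and called 3950 of all genes.

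The DOX+ arrays differed more from each other in these genes than in most genes. The SD over the 3 DOX+ arrays was between 0.97 for Il17rb and 1.70 for Gng13, and at least 1.81 for Il25, whose dim DOX+ replicate 1 value was placed at the background limit of that array, where the median over all 20736 genes was 0.20. Over the DOX- arrays it was between 0.26 and 0.90, where the median was 0.22. The DOX+ SD exceeded the DOX- SD for each of the 9, by a factor of at least 2.02 for Il25 and of 2.4 for Gng13 to 3.7 for Il17rb. No share of all genes is given for these factors. The 9 genes shared an order of DOX+ arrays, so they are not 9 separate observations. The share of all genes with a DOX+ SD at least as large was at most 0.786% for Il25, and 0.984% for Gng13, 0.993% for Sh2d6 and 4.14% for Il17rb. No test was made of these SDs, since each rests on 3 arrays.

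**Figure D3:**
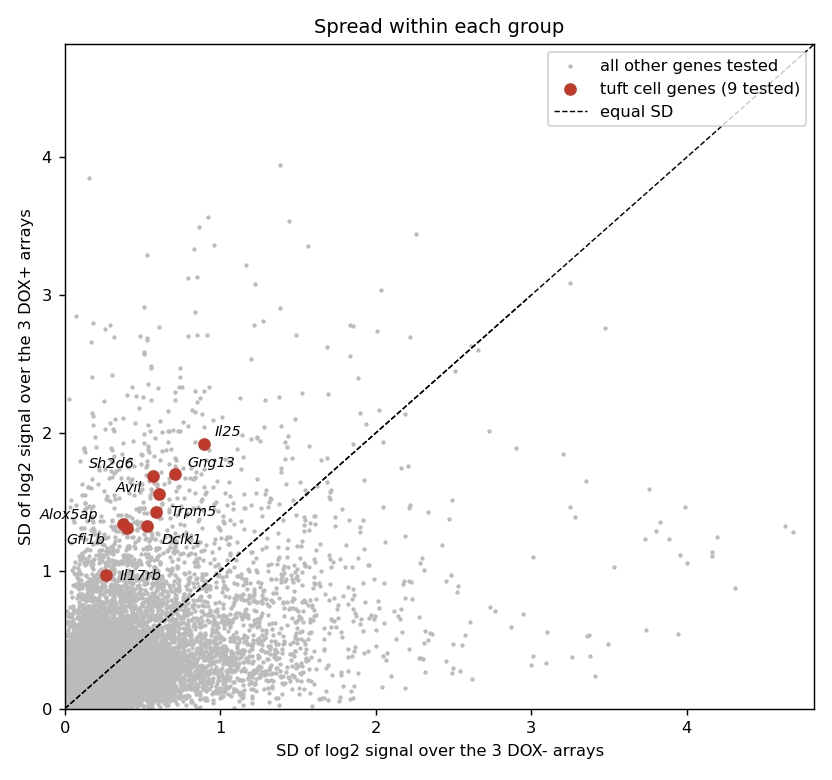
SD of log2 signal over the 3 DOX- arrays (x axis) and the 3 DOX+ arrays (y axis) for all 20736 genes tested, with the 9 tuft cell genes in red and a dashed line of equal SD. The 9 genes lie above the line, with DOX+ SDs from 0.97 for Il17rb to a plotted 1.92 for Il25, which rests on a value below background.

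The order of the DOX+ arrays was shared. The counts in this paragraph were framed after the values were seen and carry no test. The 14 member probes that were well above background on all 6 arrays come from 8 genes. All 14 had DOX+ replicate 1 lowest and DOX+ replicate 3 highest of the DOX+ arrays, an order found in 17.1% of all genes. Shares of all genes here count 1 probe per gene, whereas several probes of 1 member are not separate genes. Between these replicates the 9 genes differed by 1.85 log2 units for Il17rb, or 3.6-fold, up to 3.4 for Gng13, or 10.57-fold, and by at least 3.61 for Il25, or at least 12.23-fold, with its DOX+ replicate 1 value placed at the lowest signal well above background on that array, and 1.57% of all genes differed by 1.85 or more in that direction. The gap was made on both sides of DOX+ replicate 2, which was 0.41 to 1.9 above replicate 1 and 1.19 to 2.04 below replicate 3. In 13 of the 14 probes all DOX- arrays lay inside the DOX+ range, which held for 14.3% of all genes, and the exception was the Dclk1 probe used for the gene. DOX- replicate 1 was the lowest DOX- array in 12 of the 14, the exceptions being both Il17rb probes. No share of all genes is given for this count. That array was also the only DOX- array in row 1 of the slide, so sample and slide row cannot be told apart here.

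Genes with the nearest pattern over the 6 arrays were sought for the 3 members with the largest range, by the root mean square difference of log2 levels after each gene was centred on its mean. For Gng13, among 19144 genes, these were 1810046K07Rik (0.128), Sh2d6 (0.129) and Ly6g6f (0.145). For Sh2d6 they were Gng13 (0.129), Lrmp (0.163) and 1810046K07Rik (0.172), and for Il25, among 19241 genes, Gng13 (0.237), Sh2d6 (0.293) and 1810046K07Rik (0.303). Not all members were near in this measure. Il17rb ranked 194 for Gng13, 159 for Sh2d6 and 220 for Il25, and Dclk1 ranked 51, 56 and 93. This is a description over 6 arrays that share a slide and a scaling. 1810046K07Rik, an older name of Pou2af2, which encodes a coactivator of Pou2f3, read -3.29, -1.42 and 0.35 in DOX+ and -1.82, -0.61 and -0.57 in DOX-. Colca2, an older name of Pou2af3, another such coactivator, read -0.97, -0.51 and -0.72 in DOX+ and -1.17, -1.07 and -0.64 in DOX-, with no such spread; it was looked up after the values were seen. Their differences were -0.45 ± 0.91 (limma adjusted p = 0.863) and 0.23 ± 0.20 (SE, n = 3 per group, limma adjusted p = 0.647).

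A wider list of 76 genes known from tuft cells, grouped by role, was read from the same fit. Of these, 74 were on the array under the listed names and 69 were tested. Pou2af2 and Pou2af3 were listed too, but are left out of these counts since the array carries them under the older names above. None of the 69 was called by limma, against 0.0386% of all genes, and 5 had an unadjusted p under 0.05, or 7.25% against 13.3% of all genes. Means were higher in DOX+ for 16 and lower for 53, with a median difference of -0.26. All DOX+ arrays lay above or all below the DOX- arrays for 7, or 10.1%, against 21% of all genes. Tas1r1, counted among these 7 and among the 5 above, passed the filter only through DOX+, where it was higher. DOX+ replicate 1 was lowest and replicate 3 highest for 39 of the 69, or 56.5%, and 23, or 33.3%, had a gap of 1.85 or more in that direction. The list is not particular to tuft cells. Krt18, whose groups did not overlap, is also among the cholangiocyte markers used here. Siglecf, with a gap of 3.29, is also among the listed markers of eosinophils and basophils.

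**Figure D4:**
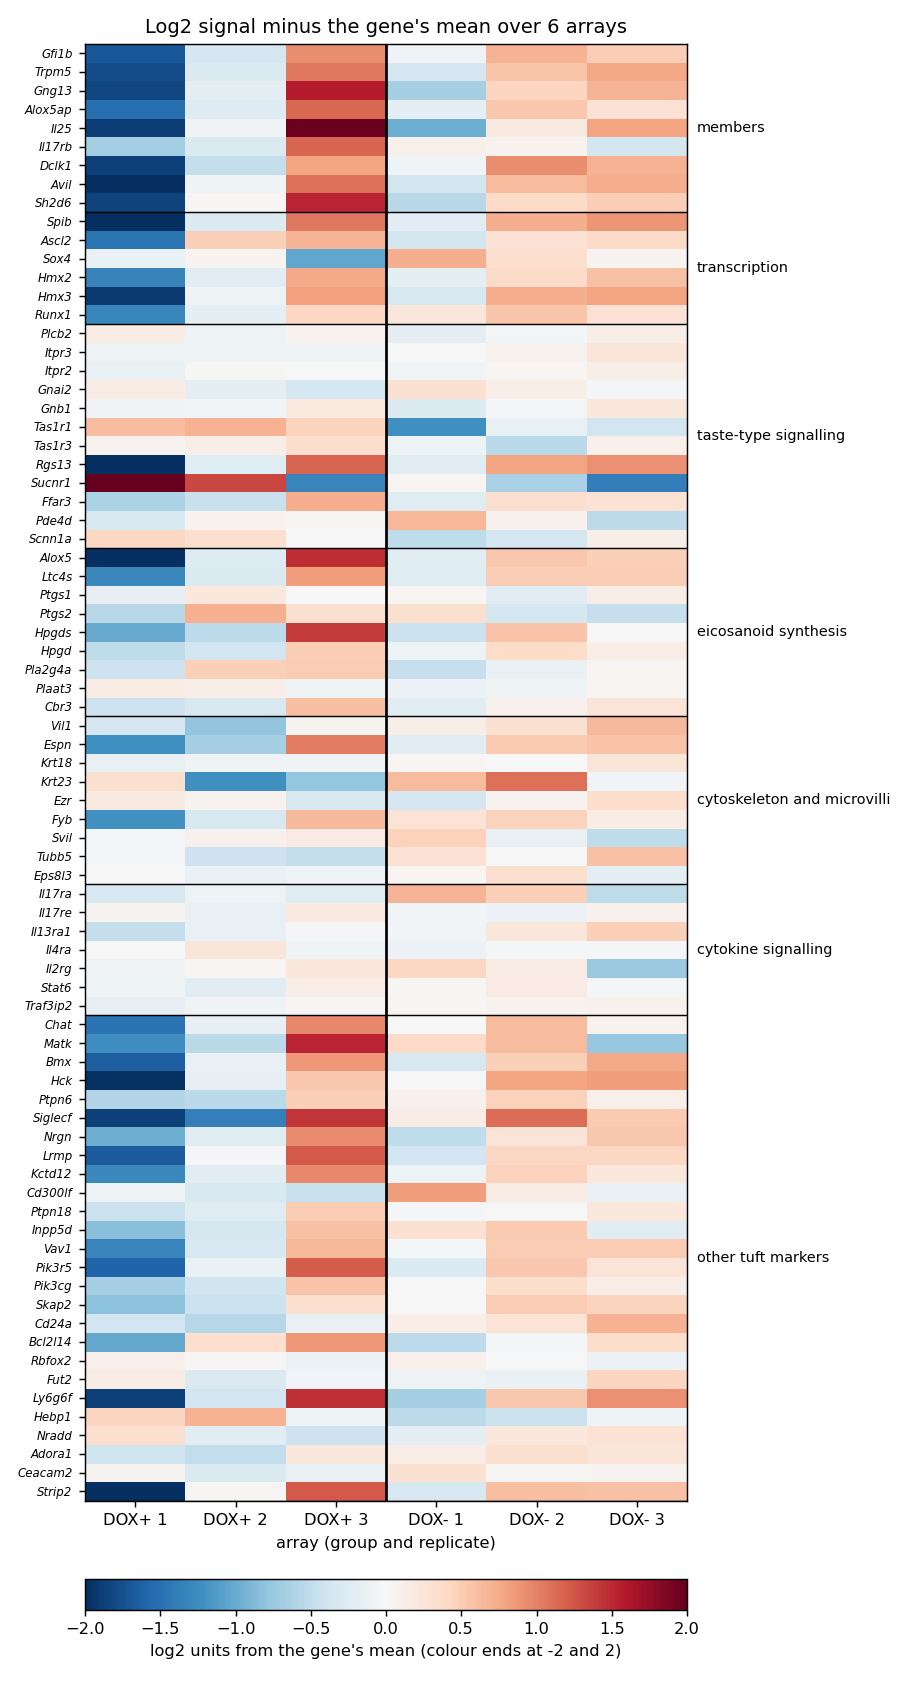
Log2 signal minus the gene's mean over 6 arrays for the 9 members and the 69 tested genes of the wider list. Genes are grouped by role, with DOX+ arrays left and DOX- arrays right of the line. Blue in DOX+ replicate 1 and red in DOX+ replicate 3 mark the order found for the members and for 39 of the 69, and 3 of the 7 cytokine signalling genes have it with no gap of 1.85 or more.

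Among the transcription factors, 5 of 6 tested had that order of DOX+ arrays and 4 had the gap. Outside this count, 1810046K07Rik had the order and a gap of 3.64, and Colca2 had neither, with 0.25. Spib, an ETS factor, read -0.97, 0.95 and 2.28 in DOX+ and 1.01, 1.95 and 2.10 in DOX-. Runx1 read -0.62, 0.51 and 1.11 in DOX+ and 0.92, 1.25 and 0.98 in DOX-. Both had a lower mean in DOX+, by -0.93 and -0.72, without passing the test (limma adjusted p = 0.647 and 0.505). Sox4, which is active in many epithelial cells, was the exception among the 6, at 0.92, 1.11 and 0.01 in DOX+ and 1.78, 1.39 and 1.1 in DOX- (limma adjusted p = 0.402).

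The taste-type signalling genes were mixed: 4 of 12 had the order and 1 had the gap, Rgs13, a regulator of G-protein signalling, which read -1.25, 0.93 and 2.33 in DOX+ and 0.96, 1.95 and 2.08 in DOX-. Plcb2, the phospholipase of the cascade, read -0.36, -0.62 and -0.45 in DOX+ and -0.71, -0.55 and -0.39 in DOX- on its brightest probe. Its probes disagreed: another one well above background on all 6 arrays read -4.27, -3.64 and -4.34 in DOX+ and -2.84, -2.67 and -4.16 in DOX-. Neither Plcb2 probe had the spread of Trpm5 and Gng13. Gnat3, the gustducin alpha subunit, was well above background on 1 DOX+ and 2 DOX- arrays and was not tested. Sucnr1, the succinate receptor, ran the other way within DOX+, at 0.28, -0.38 and -3.04, and read -1.68, -2.36 and -3.10 in DOX-.
The amino acid taste receptor subunit Tas1r1 was well above background on all DOX+ arrays and on 0 DOX- arrays. It was at least 1.09-fold higher in DOX+, with the lowest signal well above background on an array standing in for a dimmer DOX- value (limma adjusted p = 0.228). Tas1r1 thus passed the filter only through DOX+, where its levels of -4.75, -4.67 and -4.92 were close to the background limit. With normexp and quantile normalization, an alternative described below, its difference was 0.30, against 1.17 in the main fit. The sweet and umami subunit Tas1r3 and the sodium channel subunit Scnn1a differed by 0.37 and 0.50 (limma adjusted p = 0.467 and 0.378).

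Of the eicosanoid genes, 6 of 9 had the order and 3 had the gap. Alox5, the 5-lipoxygenase that works with Alox5ap, read -0.69, 1.08 and 2.82 in DOX+ and 1.13, 1.87 and 1.81 in DOX-. Ltc4s, the leukotriene C4 synthase that acts after it, read 0.91, 1.92 and 3.04 in DOX+ and 1.96, 2.70 and 2.69 in DOX-. Hpgds, the prostaglandin D2 synthase, read -3.89, -3.41 and -1.49 in DOX+ and -3.32, -2.31 and -2.90 in DOX-. These leukotriene and prostaglandin D genes thus had the same order of DOX+ arrays as Alox5ap. All 9 tested mast cell markers, read below, had that order too, and the part of mast cells in these levels was not tested. Ptgs1, the constitutive cyclooxygenase, read 2.43, 2.81 and 2.59 in DOX+ and 2.64, 2.38 and 2.72 in DOX-, and did not. Adjusted p in limma was 0.816 for Alox5, 0.725 for Ltc4s, 0.97 for Hpgds and 0.955 for Ptgs1. The phospholipase Pla2g4a and the prostaglandin dehydrogenase Hpgd differed by 0.39 and -0.26 (limma adjusted p = 0.596 and 0.735).

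Of 9 cytoskeletal and microvillar genes, 3 had the order and 2 the gap. For 3 of the 9 (Vil1, Tubb5 and Krt18) the groups did not overlap, all lower in DOX+, against 21% of all genes in either direction. The microvillar villin gene Vil1, the keratin Krt23, whose groups overlapped, and the tubulin Tubb5 are also expressed outside tuft cells, and differed by -0.71, -1.12 and -0.60 (limma adjusted p = 0.332, 0.379 and 0.322). Of 7 cytokine signalling genes, 3 had the order and 0 the gap. Il4ra, a chain of the receptors for IL-4 and IL-13, read 2.45, 2.70 and 2.38 in DOX+ and 2.34, 2.44 and 2.44 in DOX-. Il13ra1, its partner chain, read 2.79, 3.11 and 3.23 in DOX+ and 3.21, 3.49 and 3.74 in DOX- (limma adjusted p = 0.4). Il17ra, the partner of Il17rb, and the adaptor Traf3ip2 differed by -0.44 and -0.13 (limma adjusted p = 0.578 and 0.667).

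The remaining 26 tuft markers had the order in 18 and the gap in 13. Chat, the enzyme of acetylcholine synthesis, read -3.66, -2.35 and -1.22 in DOX+ and -2.19, -1.54 and -2.11 in DOX- (limma adjusted p = 0.772). Its next brightest probe, well above background on 5 arrays, placed the DOX+ arrays in the same order, at -6.38, -4.28 and -2.58. The smallest p-values of this group belonged to genes without that spread: Cd24a, a surface glycoprotein, at -0.73, Hebp1, a heme-binding protein, at 0.69, and the adenosine receptor Adora1 at -0.46 (limma adjusted p = 0.249, 0.322 and 0.41).

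Markers of other cells were read on the same arrays, as summed signal in units of the array's 75th percentile. All 9 tested mast cell markers, of 10 listed, had DOX+ replicate 1 lowest and replicate 3 highest of the DOX+ arrays, and 5 had a gap of 1.85 or more. Their sum was 9.54, 16.1 and 106 on DOX+ replicates 1 to 3 and 6.41, 3.18 and 2.72 on DOX- replicates 1 to 3. In DOX- the mast cell sum was highest in replicate 1, but single genes differed, such as Kit, which read -0.37, 0.02 and 0.07. On DOX+ replicate 3 the highest log2 levels were those of Mcpt4 (5.54) and Mcpt1 (5.42), which weigh most in such a sum. For 7 of the 9 mast cell genes the DOX+ arrays lay all above the DOX- arrays, which held for 10.1% of all genes and for no member, and 0 of the 9 passed the test. Of these 7, Fcer1a and Ms4a2 were well above background on 1 DOX- array each and so passed the filter only through DOX+, where they were high. Both tested enteroendocrine markers, Sct and Tph1 of 5 listed, shared the order too. Their sums were 0.286, 0.535 and 5.14 in DOX+ and 0.64, 1.25 and 1.59 in DOX-. Tph1 was well above background on 0 DOX- arrays and so passed the filter only through DOX+, where it was high. Of the untested ones, Chgb (-5.79, -3.27 and -0.18 in DOX+) had the order and Chga (-7.29, -1.19 and -2.47) did not. Each was well above background on 2 DOX+ arrays, and Neurod1 on 0 of the 6 arrays.
Of the 5 goblet cell markers, all tested, 4 had a gap of 1.85 or more. These were Muc2 (6.05), Clca1 (5.33), Spdef (2.25) and Tff3 (2.13), as DOX+ replicate 3 minus replicate 1, each lowest of the DOX+ arrays in replicate 1. The fifth, Agr2, had -0.38. Muc2 was well above background on 1 DOX- array and so passed the filter only through DOX+, where it was high. Clca1 and Spdef were highest in DOX+ replicate 2, and Muc2 and Tff3 in replicate 3. The goblet sums were 21.6, 123 and 72.9 in DOX+ and 45.2, 39.6 and 92.0 in DOX-.
Smooth muscle markers ran the other way, with sums of 167, 114 and 71.0 in DOX+ and 287, 53.8 and 59.2 in DOX-. The array with the highest smooth muscle sum in each group was replicate 1, and the same held for fibroblast and macrophage sums. Fibroblast sums were 130, 118 and 79.1 in DOX+ and 150, 98.2 and 109 in DOX-. Macrophage sums were 41.2, 31.5 and 35.8 in DOX+ and 58.1, 45.5 and 19.1 in DOX-. Cholangiocyte sums were 455 to 492 in DOX+ and 514 to 693 in DOX-, and leukocyte sums were 13.4 to 18.0 and 9.03 to 32.0. The pan-leukocyte gene Ptprc read 1.88 to 2.12 over all 6 arrays on its brightest probe, but its next brightest probe read 0.32, -0.02 and 0.82 in DOX+ and 1.78, 2.02 and -0.34 in DOX-, so its probes disagreed. Il13, the cytokine through which type 2 lymphoid cells act on the epithelium, was well above background on 0 of the 6 arrays. Of the 9 listed markers of type 2 lymphoid cells, 3 were tested, and all 3 had a higher mean in DOX+. Il1rl1 differed by 2.39, Gata3 by 1.5 and Rora by 0.3 (limma adjusted p = 0.219, 0.498 and 0.526), and none passed the test. The DOX+ arrays lay all above the DOX- arrays for Il1rl1 alone. The rest of the list, Il13 among them, did not pass the filter. The part of mast cells, enteroendocrine cells, goblet cells, smooth muscle, fibroblasts, macrophages or lymphoid cells in the levels of the tuft cell genes was not tested.

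**Figure D5:**
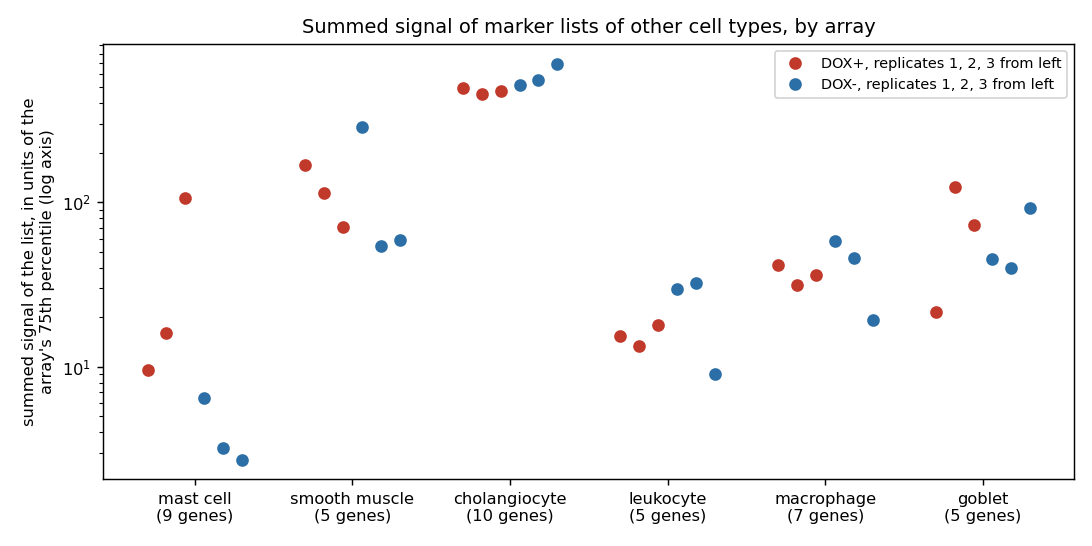
Summed signal of marker lists of 6 other cell types on each array, in units of the array's 75th percentile, on a log axis, with DOX+ in red and DOX- in blue and replicates 1 to 3 from left to right. The mast cell sum reaches 106 on DOX+ replicate 3, and the cholangiocyte sum is 455 to 492 in DOX+ and 514 to 693 in DOX-.

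Because the members shared an order of the DOX+ arrays and Pou2f3 binds an octamer, RefSeq promoter windows on GRCm38.p6 were searched on both strands. A window ran from 250 bases before to 50 after a start. There were 9 windows for 7 of the 10 members. In all, 7 strings were tried: the octamer ATGCAAAT, its overlapping parts ATGCAAA and TGCAAAT, the looser ATGNAAAT, which contains the octamer, ATGCTAAT, AAATCAC and TATAAA. Only ATGCAAA was found, in the window of Avil, where 4.63% of all 32851 windows hold it. The octamer was in 0 of the 9 windows and in 1.74% of all. The 250 bases before the Avil start (chr10:127000459-127000708, plus strand, GRCm38.p6) are printed because of that match, with both copies in capitals, which begin 115 bases (minus strand) and 15 bases (plus strand) before the start.
Avil promoter: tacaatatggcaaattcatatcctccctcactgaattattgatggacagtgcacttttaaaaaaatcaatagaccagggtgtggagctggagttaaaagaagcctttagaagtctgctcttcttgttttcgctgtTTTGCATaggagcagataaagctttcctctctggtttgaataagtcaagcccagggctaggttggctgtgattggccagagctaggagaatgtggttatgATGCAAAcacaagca
With 7 strings tried on 9 windows and 1 matched, this is a description of the letters in that window and not of binding.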

How the data were processed

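Per the file headers, the deposited spot intensity values were made with Agilent Feature Extraction 10.7.1.1 (9.5.1.1 per the submitters' processing notes), background-subtracted and detrended within each 1-colour (Cy3) array and not adjusted between arrays. The deposited flags, of unit other, mark spots well above background, saturated or outlying. The authors' table of processed intensity values is linear, with a median of 57.79 in every column; how it was normalized is not stated, and it served as an alternative.

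From these, log2 intensity was taken relative to each array's 75th percentile, without outlier spots. A probe passed when every array of a group (either one, or both) read it well above background (31719 probes), the kept probe with the highest mean stood for a gene, and limma 3.58.1 in R 4.3.3 (lmFit, eBayes, two-sided, Benjamini-Hochberg, threshold 0.05) compared 3 DOX+ with 3 DOX- arrays over 20736 genes. Genes were named through the RefSeq GRCm38.p6 table; 12869 probes kept the file's name. The number of arrays limits the precision (median standard error 0.185). The fit was tested on simulated data.

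The members and lists were chosen with earlier results of these data known. Beyond the members, the text names 11 genes of interest whatever their value, the 3 smallest p-values per role, and the 3 nearest patterns; Rgs13, Sucnr1 and Colca2 were added after their values were seen. Alternatives were the authors' values, normexp (offset 50) with quantile normalization, no filter or a stricter one, the mean of probes, array weights, the slide row, the replicate number and each array left out.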

Additional observations from a re-analysis of the deposited data

How the results depend on the processing

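Of 134 alternative values of the 9 members' differences, 115 kept direction and side of the threshold, 18 reversed and 1 passed the test; of 374 for the 25 other named genes these were 350, 15 and 9. All passes came from limma's default array weights (planned), which gave DOX- replicate 2 a weight of 128 and called 3950 genes, 1 member (Dclk1, -1.61) and 12 companion genes; there Il25 was -0.45 and Il17rb -0.19. A gene-by-gene weighting, added after seeing this, called 375 genes and no member, with Il25 at -0.31 and Il17rb at -0.15. Genes called numbered 8 as reported, 2 with the authors' values, 1 without a filter, 5 with the stricter filter, and 0 with the slide row or the replicate block, and 0 to 9 with each array left out (0 without DOX- replicate 2, 1 without DOX+ replicate 1). Nothing in the labels ties same-numbered arrays. Same-numbered deviations correlated at -0.087, -0.131 and -0.02 across genes, and the block called no member, but neither can exclude a pairing. With the replicate block the SE fell from 0.67 to 0.42 for Dclk1, 0.72 to 0.37 for Trpm5 and 0.99 to 0.44 for Il25. For Il17rb it rose from 0.48 to 0.51. Il25 was -0.09 and Ptprc 0.03 with the authors' values, Ptprc 0.05 with normexp, and Plcb2 -0.39 with the mean of probes. With the slide row, Il17rb was -0.03, Avil 0.03, Sh2d6 0.45, Gng13 0.51, Ptgs1 -0.03 and Hpgds 0.39. With each array left out in turn, differences ran from -1.37 to 0.05 for Trpm5, -0.97 to 0.95 for Il25, -0.41 to 0.51 for Il17rb, -1.37 to 0.17 for Avil, -1.02 to 0.66 for Sh2d6, -1.16 to 0.54 for Gng13, -1.10 to 0.23 for Alox5ap, -1.06 to 0.16 for Chat, -1.04 to 0.03 for Ltc4s, -0.81 to 0.40 for Hpgds, -1.41 to 0.34 for Alox5, -0.07 to 0.12 for Ptgs1, -0.01 to 0.16 for Plcb2 and -0.09 to 0.03 for Ptprc. The median DOX+ SD of the members, 1.42, was 1.33 to 1.49 under 5 other processing choices, added after seeing the data, and 1.01 to 2.01 with a DOX+ array left out. Apart from the array weights and the arrays left out, the cause of these changes was not tested. Signal near background limits Pou2f3 and Il25.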
